A study of Mesocricetus auratus with 6 samples.

Results

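The data concern 9 Wnt ligands of the uterus, Wnt2, Wnt4, Wnt5a, Wnt5b, Wnt6, Wnt7a, Wnt7b, Wnt11 and Wnt16, among 12393 genes named on an Affymetrix mouse array. They were measured by 12 of its 22626 tested probe sets. A probe set, the group of short probes read as 1 value, was taken as a member when the platform annotation gave it exactly 1 gene symbol and that symbol was one of the 9. Wnt5a, Wnt5b and Wnt7b had 2 probe sets each and the other genes 1. RefSeq lists all 9 symbols as protein-coding genes of the hamster (assembly BCM_Maur_2.0), and all 12 probe sets were tested, with no filter on level.

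The RNA came from Syrian golden hamsters (Mesocricetus auratus), taken on day 5 of gestation. There were 3 arrays of implantation sites, the uterine segments that hold an embryo, and 3 of interimplantation sites, the embryo-free segments between them. Both kinds of site were whole uterine tissue of animals that received no treatment, and the series' design text counts 3 animals. Strain, age and whether same-numbered arrays shared an animal are not given in the sources used here. In tissue of mixed cell types, fewer cells of a type and less RNA per cell cannot be told apart.

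Wnt proteins are secreted, lipid-modified signals. They bind Frizzled receptors, with the co-receptors Lrp5 and Lrp6 to stabilise beta-catenin and switch on genes through Tcf/Lef factors, or with Ror and Ryk receptors on routes that do not use beta-catenin. In the mouse uterus Wnt4, Wnt5a and Wnt6 are known as ligands of the stroma, which becomes the decidua around the embryo, and Wnt7a, Wnt7b and Wnt11 as ligands of the luminal or glandular epithelium.

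Of the 9 ligands, Wnt4 rose and Wnt7b fell at the implantation site. Wnt4 was 1.55-fold higher there and Wnt7b 1.42-fold lower by the brighter of its 2 probe sets. The other 10 probe sets did not pass the test, and their differences ran from −0.31 (the dimmer Wnt7b probe set) to 0.34 (Wnt11) on the log2 scale. All values are log2 RMA signals, differences are implantation minus interimplantation, and a probe set was called at a Benjamini-Hochberg adjusted p under 0.05 over all 22626 probe sets in limma, a linear model that shares its variance estimate across probe sets. So 1 of 12 ligand probe sets was called higher and 1 lower, where 1.26% and 1.05% of all probe sets were (2.31% in either direction). With 12 probe sets, these counts say little about the ligands as a group.

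The array medians were 4.55 to 4.57. Along the second principal component, which held 24.2% of the variance, interimplantation array 1 stood apart at −20.7, against 0.942 to 11.6 for 4 of the other arrays and −1.85 for implantation array 3. The hybridisation controls, bacterial and phage transcripts added to every sample, averaged 6.64 ± 0.17 on the implantation arrays and 7.03 ± 0.27 on the interimplantation arrays (SD, n = 3 each). In values scaled so that these controls are alike on every array (the control-scaled values), the median difference over the array was 0.38. As deposited it was −0.02, so a direction given here is one relative to most other probe sets. In the limma fit of the control-scaled values each of the 12 ligand probe sets had the same SE (0.215). An adjusted p from that fit therefore does not reflect a ligand's own scatter between arrays. All 12 ligand probe sets were brighter than the median Bacillus control (2.68), to which no hamster RNA corresponds, and 3 (Wnt6 and both of Wnt7b) were brighter than the brightest of them (5.79). Of all 22626 probe sets, 20467 and 4330 were, so these counts say little about the ligands in particular. The probes were designed on mouse sequence, so mismatches with hamster RNA can dim a probe set, and levels of different ligands were not compared.

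**Figure D1:**
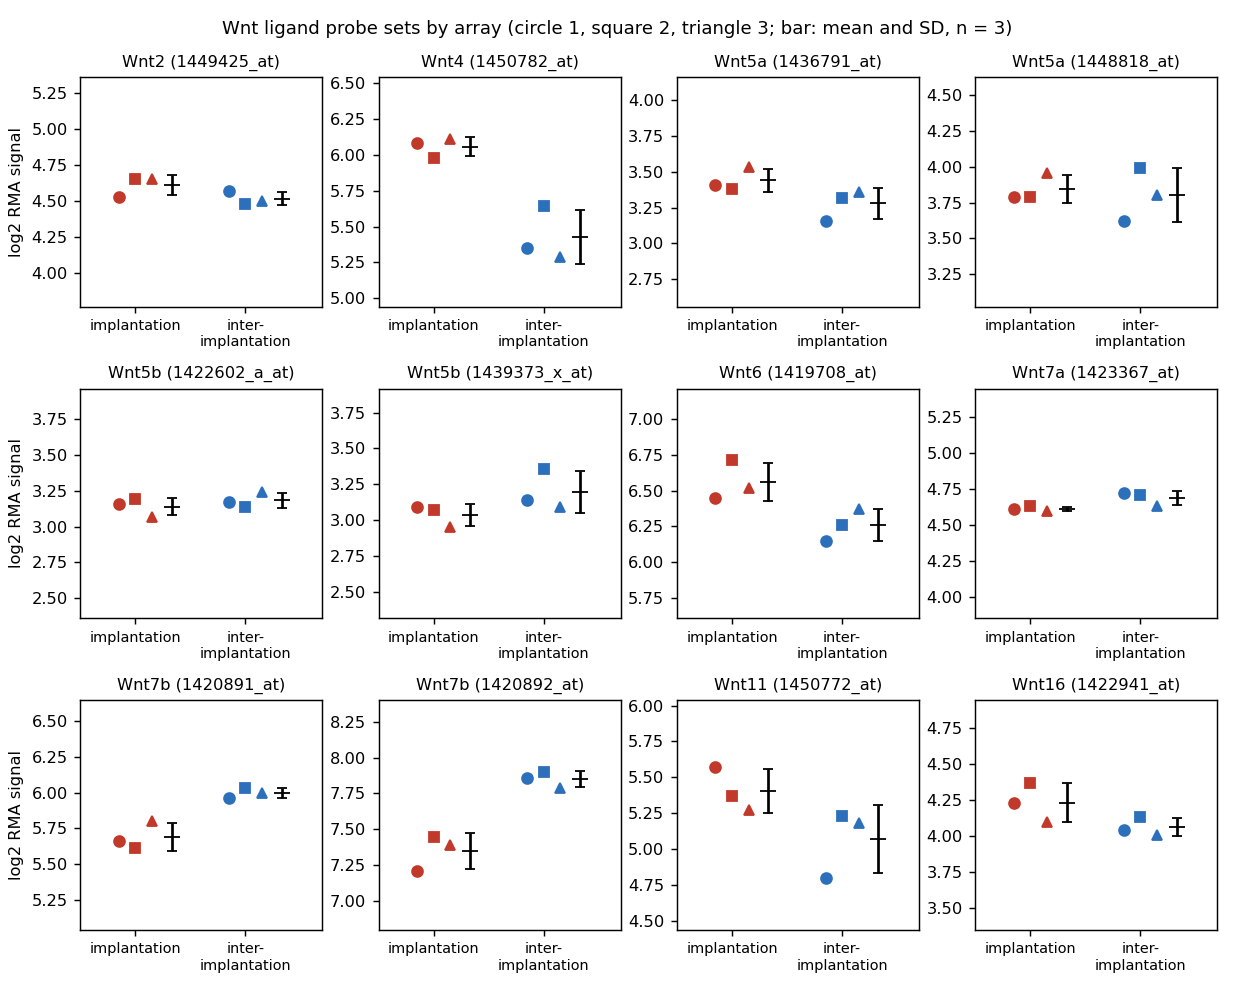
Log2 RMA signal (vertical axis, a window of the same height in each panel) of the 12 Wnt ligand probe sets on the implantation arrays (red, left) and the interimplantation arrays (blue, right), with the mean and SD of the 3 arrays as a bar. The groups stand clearly apart for Wnt4 and for the brighter Wnt7b probe set, and the Wnt5b and Wnt2 values lie close together. For the dimmer Wnt7b probe set the gap (0.16) is smaller than the range within the implantation arrays (0.19).

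Among the stromal ligands, Wnt4 is required for decidualisation in the mouse, where it acts downstream of progesterone and Bmp2. Its probe set read 6.08, 5.98 and 6.11 on the implantation arrays, against 5.35, 5.64 and 5.29 on the interimplantation arrays. The groups did not overlap, and the gap between them (0.34) was larger than the range within the implantation arrays (0.13) and close to that within the interimplantation arrays (0.35), where array 2 lay above the other two. The difference was 0.63 (SE 0.10, 95% interval 0.41 to 0.85, adjusted p = 0.00633), with means of 6.06 ± 0.07 at implantation sites and 5.43 ± 0.19 at interimplantation sites (SD, n = 3 each). Without interimplantation array 1 it was 0.59 (adjusted p = 0.0108). In a limma model that also held each array's mean control signal (the control-adjusted model) it was 0.50 and was not called (adjusted p = 0.138). In the control-scaled values it was 1.03 (adjusted p = 3.15e-04).

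Wnt6, a ligand expressed in the stroma of the mouse implantation site, read 6.45, 6.71 and 6.52 on the implantation arrays, against 6.15, 6.26 and 6.37 on the interimplantation arrays. Every implantation array lay above every interimplantation array, by a gap of 0.088 that was smaller than the range within either group (0.26 and 0.21). The difference of 0.30 (SE 0.10, 95% interval 0.09 to 0.51) did not pass the test (adjusted p = 0.152). It passed in the control-scaled values (0.70, adjusted p = 0.0406), where 752 probe sets were called higher, against 284 as deposited. In the control-adjusted model it was 0.18 (adjusted p = 0.598), and without interimplantation array 1 it was 0.25 (adjusted p = 0.237).

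Wnt5a, the ligand of the beta-catenin-independent route that shapes the implantation chamber in mice, was measured by 2 probe sets. Its brighter probe set read 3.79, 3.79 and 3.96 at implantation sites, against 3.62, 3.99 and 3.8 at interimplantation sites. The groups overlapped, with a difference of 0.04 (95% interval −0.19 to 0.27, adjusted p = 0.905) whose sign turned without interimplantation array 1 (−0.05). The dimmer probe set read 3.41, 3.38 and 3.53 at implantation sites, against 3.16, 3.32 and 3.36 at interimplantation sites. These groups were separated by only 0.027, and the difference of 0.16 (95% interval −0.03 to 0.35, adjusted p = 0.460) did not pass either.

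Among the epithelial ligands, Wnt7b fell. Its brighter probe set read 7.21, 7.45 and 7.39 at implantation sites, against 7.86, 7.90 and 7.79 at interimplantation sites. All implantation arrays were lower, and the gap of 0.35 exceeded the range within each group (0.23 and 0.11). The difference was −0.50 (SE 0.09, 95% interval −0.70 to −0.31, adjusted p = 0.0112), with means of 7.35 ± 0.12 at implantation sites and 7.85 ± 0.05 at interimplantation sites (SD, n = 3 each). The dimmer probe set read 5.66, 5.61 and 5.80 at implantation sites, against 5.96, 6.03 and 6.0 at interimplantation sites. Its groups did not overlap either, and its difference of −0.31 (SE 0.08, 95% interval −0.49 to −0.12) was not called (adjusted p = 0.0934).

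The call of Wnt7b was lost without implantation array 1, its lowest array (−0.43, adjusted p = 0.0768). The control-scaled values left −0.11 in the brighter probe set (adjusted p = 0.644) and turned the dimmer one to 0.09 (adjusted p = 0.697). In the control-adjusted model the brighter probe set was at −0.57 with no call (adjusted p = 0.0677), and without interimplantation array 1 it was at −0.50 (adjusted p = 0.0162).

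Wnt7a, the ligand of the luminal epithelium whose loss in mice leaves the uterus without glands, read 4.61, 4.63 and 4.60 at implantation sites, against 4.72, 4.71 and 4.63 at interimplantation sites. The groups touched, with a gap of 0.0026, and the difference was −0.07 (95% interval −0.24 to 0.10, adjusted p = 0.756). This interval lies above the whole 95% interval of the brighter Wnt7b probe set, which ended at −0.31. It overlaps that of the dimmer one (−0.49 to −0.12). Wnt11, a ligand of the glandular epithelium, had the opposite sign to Wnt7b. It read 5.57, 5.37 and 5.27 at implantation sites, against 4.80, 5.23 and 5.18 at interimplantation sites. The groups were separated by 0.042, within a range of 0.30 and 0.43 inside them. The difference of 0.34 (SE 0.12, 95% interval 0.07 to 0.60) did not pass (adjusted p = 0.211). It rested in part on interimplantation array 1, and without that array it was 0.20 (adjusted p = 0.362). In the control-scaled values it was 0.73 and was called (adjusted p = 0.0280), and in the control-adjusted model 0.12 (adjusted p = 0.795).

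The 3 other ligands were not called. Wnt16, a ligand of the uterine stroma in mice, read 4.23, 4.37 and 4.10 at implantation sites, against 4.04, 4.13 and 4.01 at interimplantation sites, a difference of 0.17 with overlap (95% interval −0.03 to 0.37, adjusted p = 0.439). Wnt2, which acts through beta-catenin and is known from the developing lung and placenta of the mouse, read 4.53, 4.65 and 4.65 at implantation sites, against 4.57, 4.48 and 4.5 at interimplantation sites. Its groups overlapped and its difference was 0.10 (95% interval −0.08 to 0.27, adjusted p = 0.671). Wnt5b, the close paralogue of Wnt5a, read 3.07 to 3.19 at implantation sites and 3.14 to 3.24 at interimplantation sites by one probe set, and 2.95 to 3.09 at implantation sites and 3.09 to 3.36 at interimplantation sites by the other. Its differences were −0.05 and −0.16 (adjusted p = 0.858 and 0.492), and both IDs mark probes shared by several transcripts or genes.

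Of the 12 probe sets, 7 did not overlap between the groups, 4 with the implantation arrays above and 3 with them below, where 19.3% of all probe sets did not overlap (7.62% above and 11.7% below). The unadjusted p was under 0.05 for 5 of the 12, against 14.0% of all probe sets. The median difference of the 12 was 0.07, and that of all probe sets −0.02. By sign, 6 of the 9 ligands had a positive difference by their brightest probe set. In order these were Wnt4, Wnt11, Wnt6, Wnt16, Wnt2 and Wnt5a, followed by Wnt5b, Wnt7a and Wnt7b with negative differences. The 95% intervals of 7 of the 8 pairs of neighbours in this order overlapped. The interval of the brighter Wnt7b probe set did not overlap that of any of the other 8 ligands, and that of Wnt4 overlapped those of 2, Wnt11 and Wnt6. The interval of the dimmer Wnt7b probe set (−0.49 to −0.12) did overlap others, among them that of Wnt7a (−0.24 to 0.10).

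**Figure D2:**
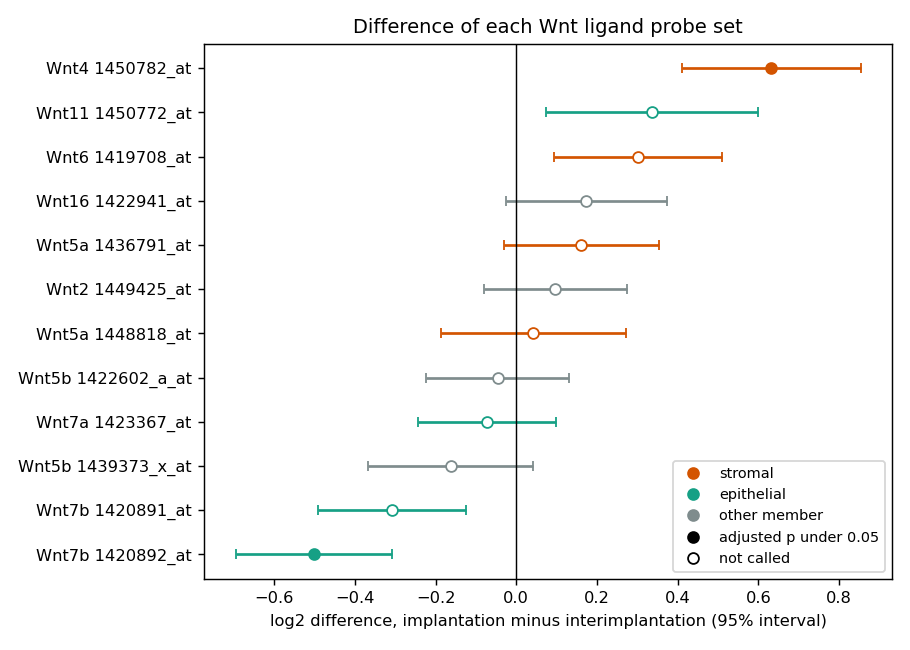
Log2 difference, implantation minus interimplantation, of each ligand probe set (points) with its 95% interval from limma, ordered by size and coloured by stromal, epithelial or other ligand. Wnt4 (0.63) and the brighter Wnt7b probe set (−0.50) are filled as called, and the epithelial Wnt11 (0.34) lies beside the stromal Wnt6 (0.30).

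To set stromal against epithelial ligands, each gene's brightest probe set was expressed as its deviation from its own mean over the 6 arrays, and the deviations of the 3 genes of a set were averaged on each array. The stromal set was at 0.12, 0.17 and 0.21 on the implantation arrays, against −0.29, −0.028 and −0.17 on the interimplantation arrays. The epithelial set was at −0.032, −0.014 and −0.073 on the implantation arrays, against −0.036, 0.12 and 0.037 on the interimplantation arrays. The stromal values did not overlap between the groups, and the epithelial values did, at interimplantation array 1.

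The stromal minus epithelial value was 0.15, 0.18 and 0.28 on the implantation arrays, against −0.25, −0.15 and −0.21 on the interimplantation arrays. It differed by 0.40 between the groups, with means of 0.20 ± 0.07 at implantation sites and −0.20 ± 0.05 at interimplantation sites (SD, n = 3 each), a description with no test since it is a score over chosen genes. Any shift that is the same for every probe set of an array cancels in it, so the control-scaled values also gave 0.40, and leaving out 1 array at a time gave 0.37 to 0.43. It rested on single genes: it was 0.25 without Wnt4, 0.19 without Wnt7b, 0.040 without both and 0.61 without Wnt11. These omissions were chosen after the values were seen. Wnt4 and Wnt7b alone gave a value for Wnt4 minus Wnt7b of 0.73, 0.39 and 0.58 on the implantation arrays, against −0.66, −0.40 and −0.65 on the interimplantation arrays.

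**Figure D3:**
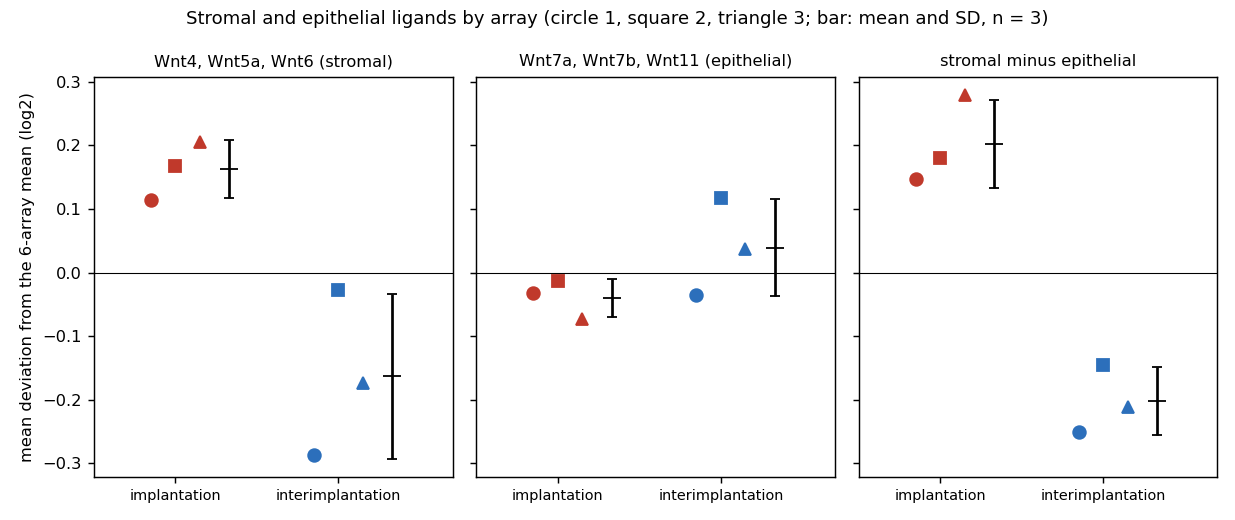
Mean deviation from the 6-array mean (log2, vertical axis) of the stromal ligands, the epithelial ligands and their difference on each implantation array (red, left) and interimplantation array (blue, right), with the mean and SD of 3 arrays as a bar. The stromal values and the difference separate the groups, and the epithelial values overlap, with implantation arrays at −0.073 to −0.014 and interimplantation arrays at −0.036 to 0.12.

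The array measured 10 further Wnt ligands with 11 probe sets: Wnt1, Wnt2b, Wnt3, Wnt3a, Wnt8a, Wnt8b, Wnt9a, Wnt9b, Wnt10a and Wnt10b. With limma 0 of these 11 were called and 0 had an unadjusted p under 0.05. Their differences ran from −0.12 to 0.17 with a median of −0.03, and none was brighter than the brightest Bacillus control. Wnt8a, with the smallest p, read 4.08, 4.12 and 4.10 at implantation sites, against 4.27, 4.23 and 4.18 at interimplantation sites (difference −0.12, adjusted p = 0.541). Wnt1 (−0.09) and Wnt2b (0.10) had adjusted p of 0.694 and 0.737.

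Genes that release and receive Wnt signals were then read by the brightest probe set of each gene, where 1.36% of 12393 genes were called higher, 1.18% lower, 2.54% in all, and the median difference was −0.02. Of 5 measured secretion genes limma called 0, with 1 at an unadjusted p under 0.05 and a median of −0.11. That gene was Wls, the carrier that brings Wnt proteins to the cell surface. It read 7.74, 7.74 and 7.78 at implantation sites, against 7.89, 8.23 and 8.31 at interimplantation sites, a difference of −0.39 (adjusted p = 0.101). Leaving out interimplantation array 1 gave a call (−0.52, adjusted p = 0.00583), as did array weights (adjusted p = 0.0284) and quantile normalization repeated (adjusted p = 0.0453). The control-scaled values left 0.0076 (adjusted p = 0.974), and its 3 probe sets ran from −0.39 to 0.16. Porcn, the enzyme that attaches the lipid, was at −0.12 (adjusted p = 0.608), and Vps35, which recycles Wls, at −0.11 (adjusted p = 0.693).

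Of 22 measured receptors, co-receptors, R-spondins and their partners, 1 fell and 0 rose, with 5 at an unadjusted p under 0.05 and a median of −0.03. Gpc3, a cell surface proteoglycan that binds Wnt and hedgehog ligands, fell. It read 5.96, 5.96 and 5.89 at implantation sites, against 6.34, 6.45 and 6.40 at interimplantation sites, with no overlap (difference −0.46, SE 0.08, adjusted p = 0.0104). The call was lost without implantation array 1 or 3 (−0.47 and −0.44, adjusted p = 0.0537 and 0.0639) and in the control-adjusted model (−0.54, adjusted p = 0.0583), where the difference stayed about as large, and in the control-scaled values (−0.06, adjusted p = 0.783). The Frizzled receptor Fzd2, named after its values were seen, had a difference of 0.31 by its brightest probe set (adjusted p = 0.0755). Its 3 probe sets ran from 0.17 to 0.39, and the one at 0.39 was called (adjusted p = 0.0292).

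Of 20 cytoplasmic genes of the pathway limma called 0, with 4 at an unadjusted p under 0.05 and a median of −0.05. The smallest p belonged to Gsk3b, a kinase that marks beta-catenin for destruction (0.29, adjusted p = 0.129), Vangl2, of the planar polarity route (0.32, adjusted p = 0.190), and the small GTPase Rhoa (0.23, adjusted p = 0.202, with a second probe set at −0.08). Of 16 antagonists and Tcf/Lef factors limma called 0, with 4 at an unadjusted p under 0.05 and a median of 0.05. Lef1, Dkk1 and Tcf7l2 had the smallest p, at 0.56, 0.35 and 0.32 (adjusted p = 0.0628, 0.0667 and 0.137), and each passed in the control-scaled values (adjusted p = 0.00103, 0.0232 and 0.0351). In those values 752 of all probe sets were called higher, against 284 as deposited. Lef1 was at 0.36 without implantation array 1, its highest array (adjusted p = 0.138). The 4 probe sets of Tcf7l2 ran from −0.23 to 0.32.

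Of 15 genes known to respond to Wnt signals in one tissue or another, 1 rose and 0 fell, with 5 at an unadjusted p under 0.05 and a median of −0.01. This list was chosen with earlier results of these data known, so its counts are a description. The riser was Fst, the activin antagonist follistatin, which read 6.91, 7.41 and 6.81 at implantation sites, against 5.49, 5.2 and 5.3 at interimplantation sites (difference 1.71, adjusted p = 1.34e-04). Axin2, a feedback inhibitor widely used as a readout of beta-catenin signalling and named after its values were seen, read 5.30, 5.21 and 5.24 at implantation sites, against 5.50, 5.46 and 5.40 at interimplantation sites. Every implantation array was lower, and the difference of −0.20 did not pass (adjusted p = 0.274). Its sign turned in the control-scaled values (0.20). Ccnd1 and Myc, growth genes known as beta-catenin targets and also named after their values were seen, had differences of the opposite sign, 0.37 and 0.24, with no overlap and no call (adjusted p = 0.0636 and 0.182). Ccnd1 was called in the control-scaled values (adjusted p = 0.0175), with array weights (adjusted p = 0.0418), with quantile normalization repeated (adjusted p = 0.0493) and among the brighter probe sets alone (adjusted p = 0.0438). Its 3 probe sets ran from 0.0036 to 0.37.

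**Figure D4:**
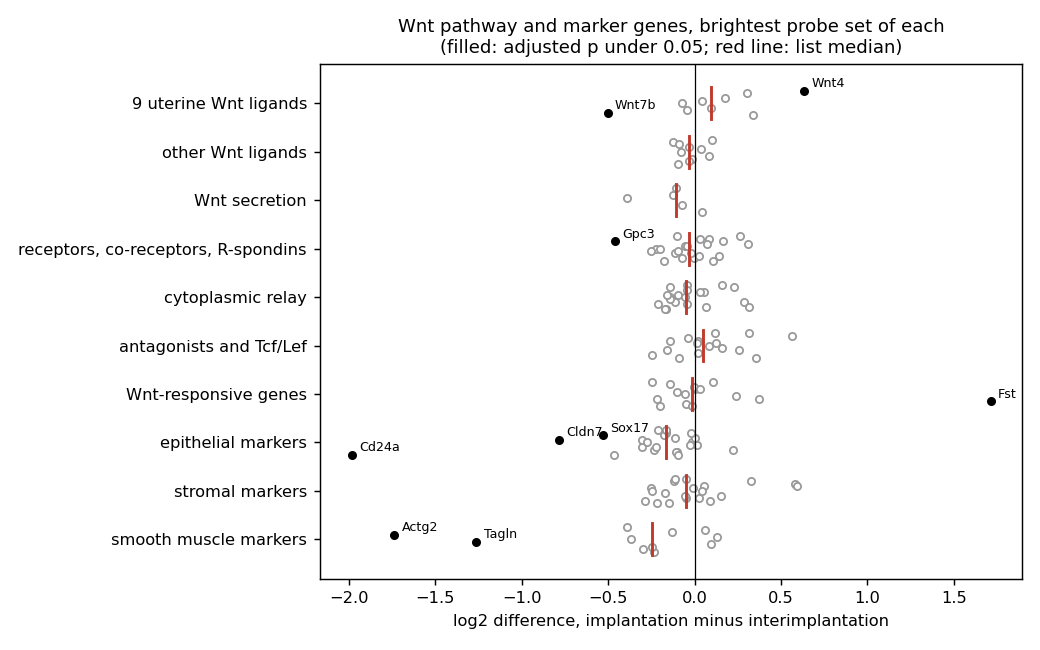
Log2 difference, implantation minus interimplantation (horizontal axis), of each measured gene of the Wnt pathway lists and of 3 marker lists by its brightest probe set, with called genes filled and named and list medians as red lines. The medians of the 6 pathway lists beside the ligands lie between −0.11 and 0.05, those of epithelial and smooth muscle markers at −0.17 and −0.25.

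Markers of uterine cell types were measured beside the ligands, with 8 of 23 epithelial, 11 of 20 stromal and 4 of 11 smooth muscle markers brighter than the brightest Bacillus control. Counting every probe set of a gene, 4330 of all 22626 were. Some markers moved with the ligands, and their part in the ligand differences was not tested. The marker lists were chosen with earlier results of these data known, so counts within them are descriptions. Of the 23 epithelial markers 3 fell and 0 rose, with 11 at an unadjusted p under 0.05, where 14.0% of all probe sets were. Of the 23 differences 20 were negative, with a median of −0.17, where 6961 of all 12393 genes were negative. Their mean level was 5.19 to 5.26 on the implantation arrays and 5.46 to 5.50 on the interimplantation arrays, with no overlap. The 3 were Cd24a, a surface glycoprotein (−1.98, adjusted p = 6.74e-07), the tight junction gene Cldn7 (−0.78, adjusted p = 0.00868) and the transcription factor Sox17 (−0.53, adjusted p = 0.0467). Of the 3 Cd24a probe sets 2 were called, the second at −1.78 (adjusted p = 0.00579), and the third was at −0.13. The other Sox17 probe set was at 0.07. The calls of Cldn7 and Sox17 were lost in the control-scaled values (adjusted p = 0.155 and 0.564) and in the control-adjusted model (adjusted p = 0.0843 and 0.114). Sox17 also lost its call when implantation array 1 or 3 or any of the interimplantation arrays was left out (adjusted p 0.0641 to 0.174). The keratin Krt18, chosen after its values were seen, had a difference of −0.47 (adjusted p = 0.0866). Of the 4 probe sets of Cldn3 2 were called, but not the brightest (−0.30, adjusted p = 0.178). On the same list 3 differences were positive, Ltf (0.22, adjusted p = 0.323, no overlap), Klf5 (0.01) and Krt19 (0.00068). Epcam and Muc1 were at −0.01 and −0.02, and both overlapped between the groups.

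Of 20 stromal markers limma called 0, with 4 at an unadjusted p under 0.05 and a median of −0.05. Their mean level was 6.05 to 6.10 at implantation sites and 5.98 to 6.11 at interimplantation sites. Igfbp4 (0.59), Hand2, a progesterone-responsive transcription factor of the stroma (0.58), and Vim, the intermediate filament of mesenchymal cells (−0.29), had the smallest p (adjusted p = 0.0628, 0.0685 and 0.293). Of the 6 probe sets of Igfbp4 the other 5 ran from −0.03 to 0.16. All 3 probe sets of Vim were negative, and 1 of them was called (−0.40, adjusted p = 0.0470). Pdgfra, with 2 probe sets, and Dio2, with 3, also had 1 called probe set each, not the brightest. Hand2 was called without interimplantation array 1 (0.37, adjusted p = 0.0493) and Igfbp4 without interimplantation array 3 (0.72, adjusted p = 0.0464).

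Of 11 smooth muscle markers 2 fell and 0 rose, with 6 at an unadjusted p under 0.05 and a median of −0.25. The 2 that fell were Actg2 (−1.74, adjusted p = 0.00621) and Tagln (−1.26, adjusted p = 0.00343). The list's mean level was 5.32 to 5.54 at implantation sites and 5.75 to 5.93 at interimplantation sites. Of the 11, 3 had positive differences, Des (0.13), Cald1 (0.10) and Myh11 (0.06). The other of the 2 Myh11 probe sets was called, and its difference is not given here. Acta2 overlapped between the groups (−0.24, adjusted p = 0.524). Actg2 was not called with limma's trended, robust variance (adjusted p = 0.153) or in the control-adjusted model (adjusted p = 0.0583). Limma called 0 of 10 endothelial, 0 of 10 trophoblast and embryo and 0 of 9 leukocyte markers, with 1, 0 and 1 at an unadjusted p under 0.05. Their mean levels were 5.02 to 5.07 at implantation sites and 5.05 to 5.16 at interimplantation sites for the endothelial list, 4.33 to 4.38 at implantation sites and 4.42 to 4.49 at interimplantation sites for the trophoblast and embryo list, and 4.47 to 4.59 at implantation sites and 4.40 to 4.58 at interimplantation sites for the leukocyte list. The trophoblast list was the one of these whose groups did not overlap. The smallest p of these lists belonged to Vwf (−0.40, adjusted p = 0.146), to Krt8 (−0.16, adjusted p = 0.403) and to Cd68 (0.38, adjusted p = 0.140). Krt8 stood on the epithelial list as well, so the trophoblast and embryo list is not separate from it.

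Among 463 other called probe sets with a single symbol, those with the smallest root mean square difference from Wnt4, after each profile was centred on its mean over the 6 arrays, were Bzw2 (0.050), Fkbp4, a co-chaperone of the progesterone receptor (0.052), and Hspa5, the main chaperone of the endoplasmic reticulum (0.057). Their differences were 0.63, 0.70 and 0.55, against 0.63 for Wnt4. For Wnt7b they were Jmjd1c (0.055), Ahcyl2 (0.055) and Ahnak (0.061), with differences of −0.47, −0.46 and −0.51. The Hspa5 probe set was dimmer at interimplantation sites (mean 2.50) than the median Bacillus control (2.68), and the bright probe set of that gene had a larger difference (0.86, adjusted p = 4.53e-04). Each of these probe sets was taken from the called ones, so its direction was fixed by the choice. Other probe sets of Bzw2 and Fkbp4 had the opposite sign (−0.16 and −0.13), and those of Ahcyl2 and Ahnak reached up to −0.06 and 0.04.

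**Figure D5:**
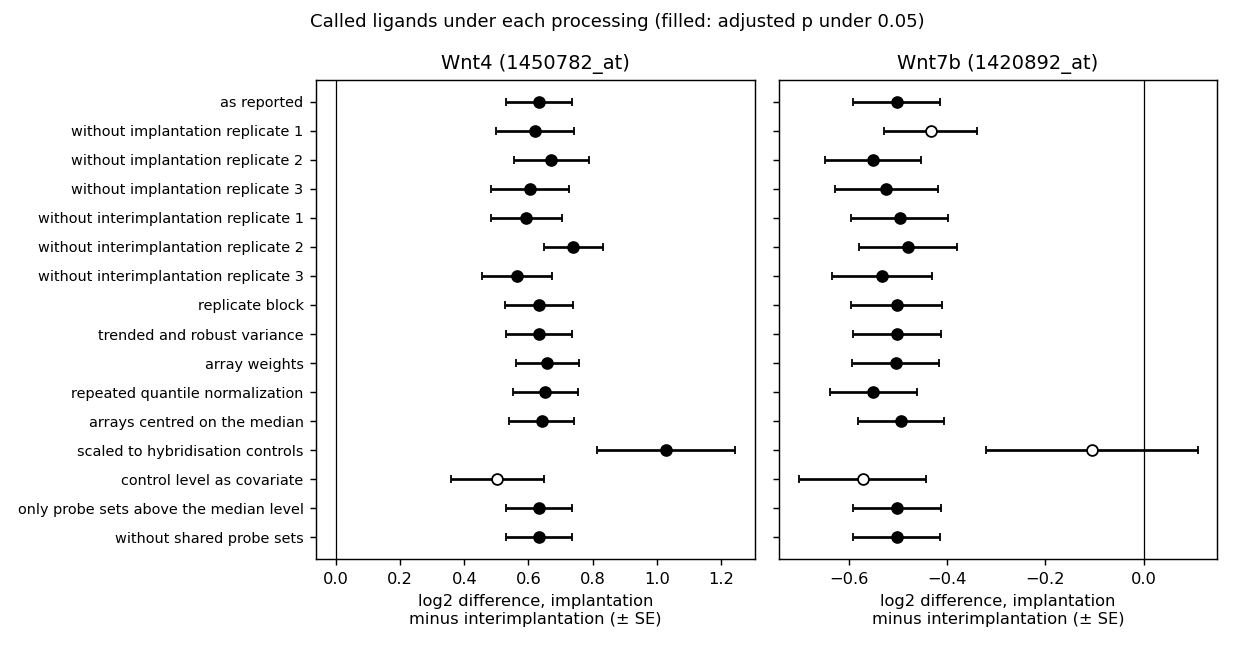
Log2 difference, implantation minus interimplantation (horizontal axis, ± SE), of Wnt4 and of the brighter Wnt7b probe set as reported and under each other processing, filled where the adjusted p was under 0.05. Wnt4 stays between 0.50 and 1.03 and is open only in the control-adjusted model, and Wnt7b is open in 3 settings, with −0.11 in the control-scaled values nearest to 0.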

How the data were processed

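Uterine RNA of day 5 was hybridised to 6 mouse arrays. The authors made the deposited log2 values, 1 for each probe set on each array, using Partek 6.6 with RMA (robust multi-array averaging), per the submitters' processing notes. These notes do not state the log base, and 2 was taken because RMA usually returns it and the values span a fitting range. Of 22690 probe sets, 64 controls were left out. Of the rest, 20380 had 1 symbol in the platform annotation, 691 several and 1555 none.

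The comparison used limma 3.58.1 under R 4.3.3 (lmFit, eBayes, a group term alone, two-sided, Benjamini-Hochberg over 22626 probe sets). Every adjusted p comes from a limma fit, and that of an alternative from the fit changed as named. Where probe sets were filtered out, the adjustment ran over those kept. The calculation was tested on simulated data. In lists, each gene's brightest probe set stood for it. All ligand probe sets were named, then the called members of each list, or failing these the 3 with the smallest p, and the 3 nearest profiles of a called ligand. Members and lists were chosen with earlier results of these data known. The number of arrays limits precision. Same-numbered arrays did not deviate together from their group means (correlations −0.090, 0.071 and −0.028). With 3 arrays per group, such correlations cannot show that the arrays were unpaired. If 3 animals gave both kinds of site, as the design text's count allows, the fit with a group term alone ignores that pairing. Alternatives were single arrays left out, a replicate block, other variance models, weights, normalizations and filters. No sequences were used here.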

Additional observations from a re-analysis of the deposited data

How the results depend on the processing

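The fall of Wnt7b was called in 12 of 15 alternatives and lost without implantation array 1 (−0.43), in the control-scaled values (−0.11) and in the control-adjusted model (−0.57). Leaving out single arrays gave −0.55 to −0.43. Wnt4 was called in 14 of 15 and lost in the control-adjusted model (0.50). The cause was not tested. Ligand probe sets called higher numbered 3 in the control-scaled values (Wnt4, Wnt6 and Wnt11) and 0 in the control-adjusted model. Those called lower numbered 0 in both, and 0 to 1 over the arrays left out. The stromal minus epithelial value was 0.37 to 0.43 in 15 alternatives of processing. With ligands left out after the values were seen it was 0.25 (Wnt4), 0.19 (Wnt7b), 0.61 (Wnt11) and 0.040 (Wnt4 and Wnt7b). With only the probe sets above the median level it gave no value, since Wnt5a was not among them. The replicate number as a block, where it is not known whether the numbers pair the arrays, gave 0.63 for Wnt4 (adjusted p = 0.00965) and −0.50 for Wnt7b (adjusted p = 0.0155), and changed no ligand call. Over all probe sets, 284 were higher and 238 lower. Without single arrays these were 117 to 329 and 88 to 401, in the control-scaled values 752 and 13, in the control-adjusted model 77 and 130, without shared probe sets 138 and 96, and with array weights 363 lower.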
